A study of Mus musculus with 6 samples.

Results

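Ion channels and neurotransmitter receptors are the membrane proteins that set electrical excitability and carry signals at synapses, and many of their genes are held silent outside the nervous system and muscle. H3K27me3 (histone H3 with 3 methyl groups on lysine 27) is deposited by polycomb repressive complex 2 and marks genes kept silent in a given cell type, often over CpG-rich sequence around the start of the gene. Peaks of H3K27me3 in these genes were examined in mouse primary mesangial cells, the contractile support cells of the kidney glomerulus, with and without the profibrotic cytokine TGF-β1. The members were all autosomal protein-coding genes of the GENCODE M1 annotation of the mouse assembly mm9 whose symbols name a potassium, sodium, calcium or pacemaker channel subunit or a receptor for glutamate, GABA (type A), glycine, acetylcholine, serotonin or dopamine. There were 216 members in 16 families, of 21281 autosomal protein-coding genes in all, and each gene's membership was decided by symbol alone. The set itself was chosen with earlier results of these data known, so comparisons of members with other genes are not independent tests.

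The 6 samples were 3 Control and 3 TGF-β1 samples, the latter exposed for 72 h to the cytokine at 10 ng/ml, and both groups were used at passages 3 to 6 in high-glucose medium (25.5 mM) supplemented with 20% foetal bovine serum. The study calls the samples of a group biological replicates, but the sources do not say whether they were separate cultures, so every p-value refers to the spread between these samples, which may be technical in part. Depth without duplicates was 19721434 to 22307716 tags per library, and each library had its own list of broad peaks, 2005 to 2699 per Control sample and 878 to 1603 per TGF-β1 sample. A gene was called in a sample when a listed peak shared at least 1 bp with the gene body or the 2 kb upstream of it. The lists were made without an input library and hold no tag count per peak, so a gene without a call is one in which no peak was listed, and no counting interval could be given. In bulk cells, fewer cells carrying the mark and less of the mark per cell cannot be told apart.

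The labels were compared with genes of known behaviour, against a share of 11.0% of all autosomal protein-coding genes with a call in at least 1 sample. Of 5 genes active in every cell type, 0 had a call in any sample, and 8 of 10 markers of mesangial cells and pericytes were also without one, the exceptions being Igfbp5 and Gata3 in Control samples. Lists this short and a share this low leave the check of active genes weak. Of 7 classic polycomb targets, however, 2 were called, Hoxd13 and Pax6, each in 1 Control sample, so most genes that the mark is known for in other cells had no peak in these lists. The file headers name the libraries gDNA and the labelled extraction protocol describes an enrichment of methylated DNA, whereas titles, antibody label and study all give H3K27me3. Chromosome 9 stood apart: the background implied by its peaks had a median of 87.1 to 144 tags per sample, against 2.82 to 4.18 tags on the other autosomes, and 5 of the 20 members on it were called against 95 of the 196 elsewhere. Genes outside the members were also called less often there, 62 of 1232 (5.03%), against 10.6% over all autosomes.

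The sequences of 6 peak regions show what the calls lay on. Each is the stretch under the peaks of every sample with a call in that region, cut to its central 200 bases where longer, written 5′ to 3′ on the strand of the gene from the mm9 genome, with CG dinucleotides in capitals. The first set holds regions within 2 kb of gene starts that had a peak in each Control sample and none in the TGF-β1 group. They come from Cacng4 at chr11:107655003-107655202 on the minus strand (an auxiliary subunit that also binds AMPA receptors), Grid1 at chr14:35632474-35632568 on the plus strand (a delta glutamate receptor) and Kcnk3 at chr5:30891576-30891775 on the plus strand (the acid-sensitive leak channel TASK-1).
Cacng4: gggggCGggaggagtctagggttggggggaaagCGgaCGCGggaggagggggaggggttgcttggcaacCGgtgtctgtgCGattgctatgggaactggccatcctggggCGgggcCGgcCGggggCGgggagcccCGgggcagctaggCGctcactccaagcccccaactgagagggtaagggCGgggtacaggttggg
Grid1: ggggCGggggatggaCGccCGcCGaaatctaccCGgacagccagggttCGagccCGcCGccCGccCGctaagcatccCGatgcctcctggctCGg
Kcnk3: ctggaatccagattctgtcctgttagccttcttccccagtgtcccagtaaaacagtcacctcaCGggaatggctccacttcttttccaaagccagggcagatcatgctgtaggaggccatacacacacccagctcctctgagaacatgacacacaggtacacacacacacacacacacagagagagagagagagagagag
The Grid1 stretch, wholly upstream of the gene, held 12 CG in 95 bases, and the Cacng4 stretch, from a region of coding and intron sequence, held 13 in 200. The Kcnk3 stretch, from an intron, held 1 and ended in a run of CA and GA repeats, so the regions of this set were not all CpG-rich. The second set holds regions within 2 kb of gene starts that were called in all 3 Control and also in 2 TGF-β1 samples. They come from Gabra2 at chr5:71487245-71487421 and Gria2 at chr3:80604749-80604864, both on the minus strand, which encode subunits of the GABA type A and AMPA receptors.
Gabra2: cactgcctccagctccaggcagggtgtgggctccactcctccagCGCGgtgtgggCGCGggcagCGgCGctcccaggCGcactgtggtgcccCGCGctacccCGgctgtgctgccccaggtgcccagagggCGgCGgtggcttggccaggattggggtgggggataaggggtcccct
Gria2: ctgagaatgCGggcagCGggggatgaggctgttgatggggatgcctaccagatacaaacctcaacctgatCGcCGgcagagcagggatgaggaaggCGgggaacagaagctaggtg
Their CG counts were 12 in 177 bases for Gabra2 and 5 in 116 for Gria2. The last sequence is from an intron region that was called in every sample of both groups, in Cacna1a (the P/Q-type calcium channel Cav2.1) at chr8:86937456-86937655 on the plus strand.
Cacna1a: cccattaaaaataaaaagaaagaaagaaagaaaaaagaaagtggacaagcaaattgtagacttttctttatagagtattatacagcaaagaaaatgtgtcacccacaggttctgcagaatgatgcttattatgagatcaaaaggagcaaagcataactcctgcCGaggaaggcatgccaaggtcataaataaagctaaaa
The Cacna1a stretch held 1 CG and was 34.5% G and C.

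The first comparison asked how many members carried a call in each group. In at least 1 of the 6 samples 100 of the 216 members were called (46.3%), against 11.0% of all autosomal protein-coding genes and 10.6% of the 21065 other genes. The calls were unevenly shared: 61 members were called in Control samples only, 4 in TGF-β1 samples only and 35 in both groups. The same split was not made for other genes. Members with a peak numbered 54, 63 and 48 in Control 1 to 3, against 23, 12 and 18 in TGF-β1 1 to 3. The groups did not overlap, with a mean of 55.0 ± 7.55 (SD, n = 3) against 17.7 ± 5.51 (SD, n = 3). On the scale of log2(count + 0.5) the TGF-β1 samples were lower by 1.65, or 3.14-fold, with a pooled SD of 0.35. The 2-sided exact permutation p was 0.1 (0.117 after Benjamini-Hochberg adjustment over 7 tests), and 0.1 is the smallest p that 3 against 3 samples can give. No comparison here can therefore pass 0.05. Other genes separated without overlap as well, with calls in 5.87, 5.76 and 4.36% of them in Control 1 to 3. In TGF-β1 1 to 3 their shares were 2.94, 1.47 and 2.55%. The length covered by peaks in members was 40.5, 47.0 and 28.4 kb in the Control samples and 13.7, 6.07 and 10.2 kb after TGF-β1, a log2 difference of -2.00 (exact permutation p = 0.1, adjusted 0.117). The TGF-β1 lists were shorter, and with 878 peaks from every sample, those of lowest q, the log2 differences shrank to -0.65 for members with a peak and -0.97 for covered length (exact permutation p = 0.1 each).

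**Figure D1:**
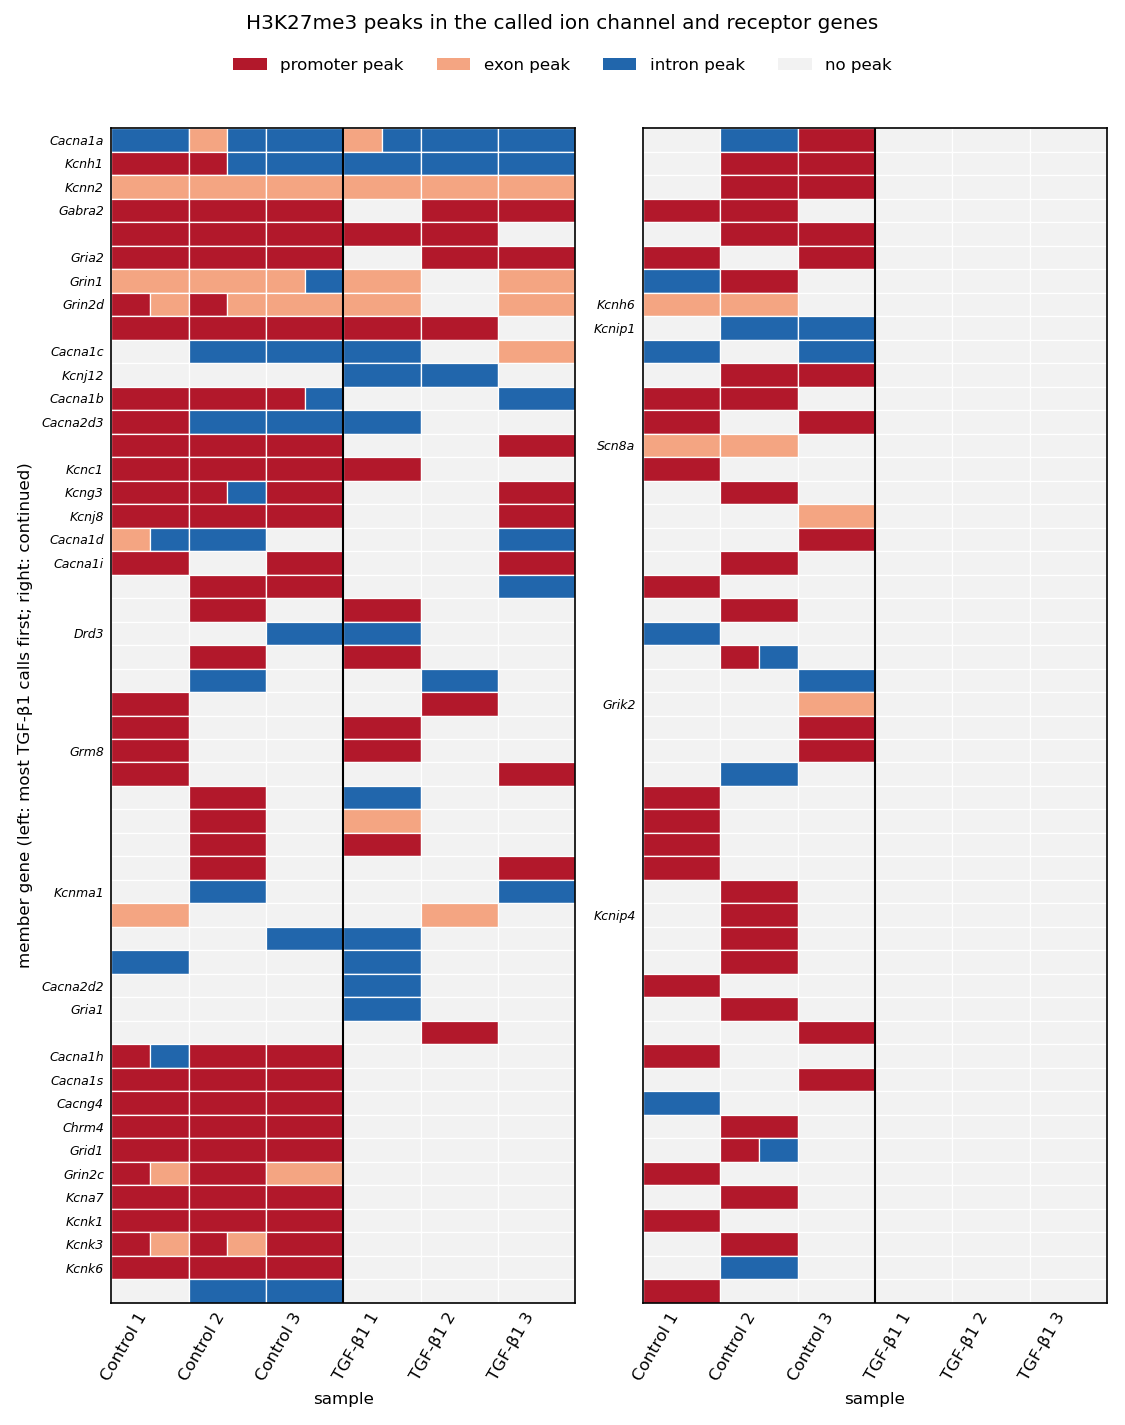
Grid of the 100 called members (rows, most TGF-β1 calls first, continued in the right column, with names for the genes described in the text) by sample (columns), coloured by where the peak lay: promoter, exon or intron, with a cell split where a sample had more than 1 class. The 61 members at the end of the order have calls under Control only, and 3 genes, Cacna1a, Kcnh1 and Kcnn2, are filled in all 6 columns.

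The next comparison set promoter against intron calls. A promoter call was a peak within 2 kb of the annotated start of the gene. An exon call lay elsewhere and touched an exon, and an intron call lay in the gene body and touched neither. Promoter calls were found in 42, 48 and 32 members of the Control samples, against 8, 6 and 8 after TGF-β1. These groups were far apart, with means of 40.7 ± 8.08 and 7.33 ± 1.15 members (SD, n = 3 each) and a log2 difference of -2.39, or 5.23-fold lower (exact permutation p = 0.1, adjusted 0.117). Intron calls were found in 8, 15 and 12 members of the Control samples, against 11, 4 and 6 after TGF-β1. Here the groups overlapped, and the log2 difference of -0.76 was close to the pooled SD of 0.57 (exact permutation p = 0.2, adjusted 0.2). Exon calls were found in 9, 7 and 6 members against 5, 2 and 4, and were not compared with those of other genes. For promoter and intron calls, other genes showed the same pattern. Their promoter calls, in 3.89, 3.86 and 2.78% of genes under Control against 1.41, 0.641 and 1.19% after TGF-β1, did not overlap between groups. Their intron calls did, with 1.63, 1.56 and 1.30% against 1.32, 0.684 and 1.13%.

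The difference between the promoter and the intron change of the members was itself tested. The log2 ratio of promoter to intron calls within a sample averaged 1.78 for Control and 0.16 for TGF-β1, a difference of -1.62 with a pooled SD of 0.50. The groups did not overlap (exact permutation p = 0.1, adjusted 0.117), although they did with peaks of a −log10 q of at least 5 (exact permutation p = 0.4). Other genes shifted in the same direction. Their promoter calls averaged 740 ± 134 genes under Control against 228 ± 83.9 after TGF-β1 (SD, n = 3 each). Their intron calls averaged 315 ± 36.7 against 220 ± 68.7. Whether the shift was larger in members was not tested. Per length, promoter windows of the members, 0.862 Mb in all, held 48.7 ± 10.3 peaks per Mb under Control and 8.51 ± 1.34 after TGF-β1 (SD, n = 3 each). Their introns, 27.6 Mb in all, held 0.48 ± 0.16 and 0.28 ± 0.11 peaks per Mb. Peaks were thus denser at starts than in introns in both groups. The sizes depend on which peaks are counted: with the same 878 peaks per sample, the promoter counts became 13, 12 and 16 against 4, 6 and 6, a log2 difference of -1.29, and the intron counts became 2, 2 and 2 against 5, 4 and 3, a log2 difference of 0.82 in the other direction.

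**Figure D2:**
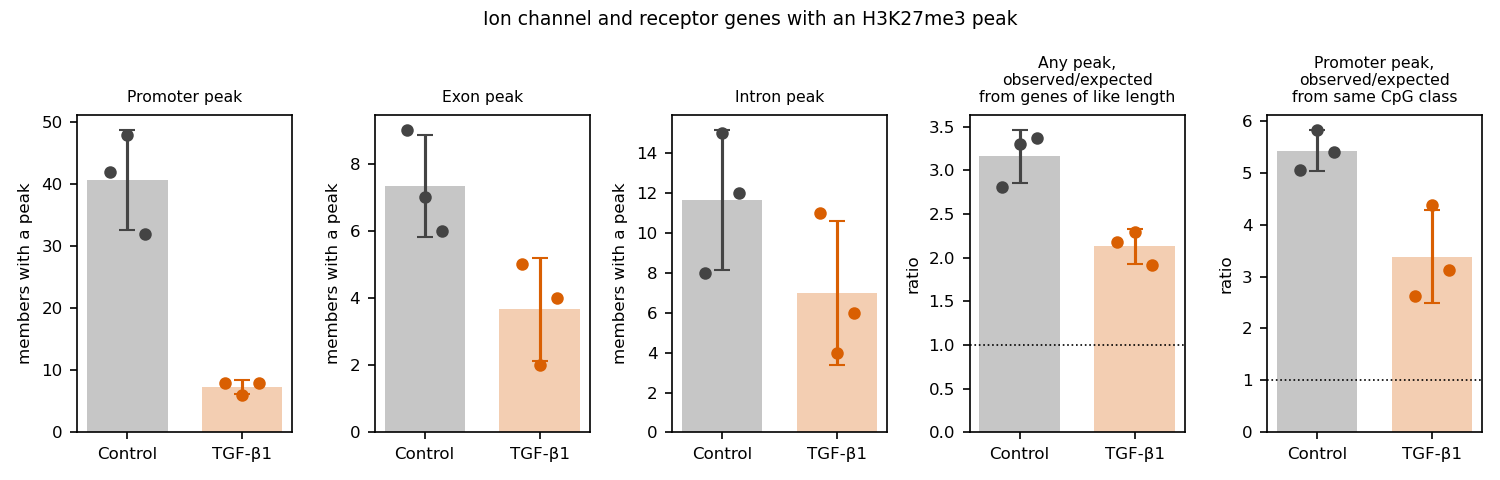
Members with a promoter, exon or intron peak in each sample (first 3 panels), and the ratio of observed to expected members with any peak or with a promoter peak (last 2 panels). Points are samples, bars are group means and error bars are SD (n = 3). Control and TGF-β1 points do not overlap in any panel except the intron panel, and the ratios stay above 1, the dotted line, in all 6 samples.

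Of all autosomal protein-coding genes 6.93% had a promoter call in at least 1 sample, and of the members 74 did (34.3%). Among these members, 56 had promoter calls in Control samples only, 17 in both groups and 1 in a TGF-β1 sample only. The share with calls in Control samples only was 76.7% of the 73 members with a Control promoter call and 57.7% of the 26 members with a Control intron call. These splits were not made for other genes, whose promoter calls were also fewer after TGF-β1, with a mean of 1.08% of genes against 3.51% under Control. Promoter regions of the members lay mostly inside the gene: of 82, 45 were wholly downstream of the start, 20 spanned it and 17 were wholly upstream.

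Gene length and CpG content were taken into account by comparison with other genes. The median member was 42.1 kb long and the median other gene 15.5 kb. Given the shares of other genes of like length, 19.2, 19.1 and 14.3 members would carry a peak in Control 1 to 3, and 10.5, 5.22 and 9.42 in TGF-β1 1 to 3. The observed count was 2.81, 3.30 and 3.37 times that number for Control and 2.18, 2.30 and 1.91 times for TGF-β1. It was thus above the number for genes of like length in 6 of 6 samples, and the ratio was lower after TGF-β1 by 0.59 on the log2 scale (pooled SD 0.13, exact permutation p = 0.1, adjusted 0.117). For promoter calls, the number given by other genes of the same CpG class was exceeded 5.05, 5.82 and 5.40 times for Control and 2.63, 4.37 and 3.13 times for TGF-β1. These groups did not overlap either, with a log2 difference of -0.85 (pooled SD 0.20, exact permutation p = 0.1, adjusted 0.117). With peaks of a −log10 q of at least 5 only, the groups overlapped in both ratios (exact permutation p = 0.3 for genes of like length and 0.2 for promoter calls).

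Promoters were classed as CpG-rich where the 1 kb either side of the start had a GC share from 0.5 up and a CpG observed/expected ratio from 0.6 up, which 63 of the members met (29.2%, against 30.6% of other genes). Of these, 37 had a promoter call in some sample (58.7%), as had 37 of the 153 CpG-poor members (24.2%). The corresponding shares of other genes were 9.58% and 5.35%. Among CpG-rich members, 36.5 ± 4.20% had a promoter call under Control, against 6.35 ± 2.75% after TGF-β1 (SD, n = 3 each). Among CpG-poor members the values were 11.5 ± 3.94% and 2.18 ± 0.998%. Calls were therefore fewer after TGF-β1 in both classes, with no overlap of the groups in either (exact permutation p = 0.1 for each class, outside the 7 tests). Other genes separated in the same way, with 5.53 ± 0.900% against 1.43 ± 0.458% of CpG-rich and 2.62 ± 0.528% against 0.930 ± 0.373% of CpG-poor genes (SD, n = 3 each, exact permutation p = 0.1 for each class).

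The dependence on length differed between the classes of call. Among the 72 longest members (98.8 kb and above) promoter calls were found in 21.8 ± 4.46% of genes under Control, against 7.41 ± 1.60% after TGF-β1 (SD, n = 3 each). Among the 72 shortest (0.705 to 19.5 kb) the shares were 13.9 ± 1.39% and 0.926 ± 1.60%. Other genes of the shortest class had 2.70 ± 0.414% and 0.953 ± 0.309%, so after TGF-β1 the shortest members were not above them. Intron calls were found in 12.5 ± 4.17% and 6.94 ± 4.17% of the longest and in 0 of the shortest members. Among other genes of the longest class, intron calls were found in 7.03 ± 0.979% and 5.56 ± 1.72%, and promoter calls in 7.98 ± 1.91% and 2.05 ± 0.849%.

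**Figure D3:**
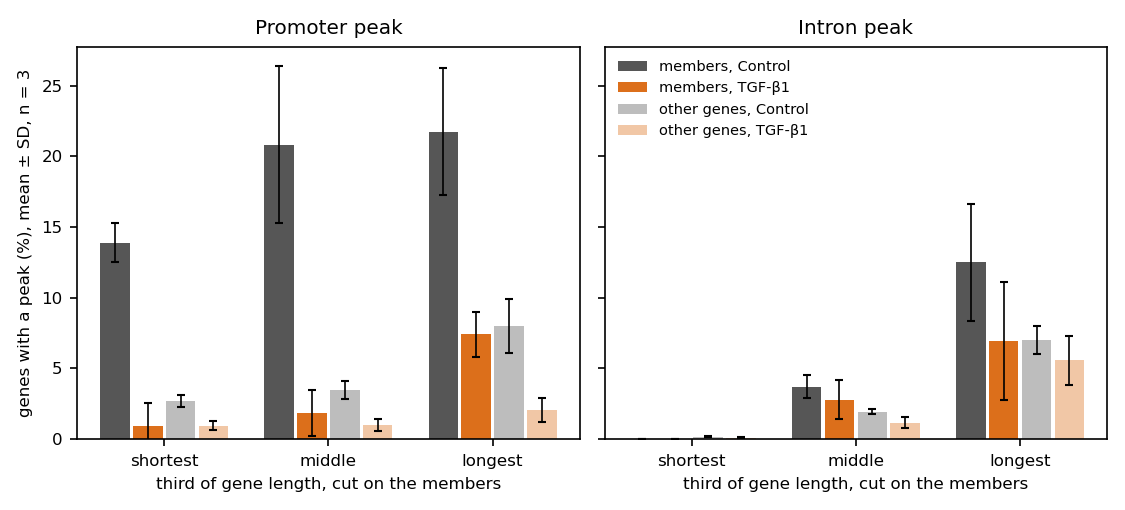
Share of genes with a promoter peak (left) or an intron peak (right) by gene length, in 3 classes with limits that divide the members equally and were applied to other genes. Bars are means over 3 samples and error bars are SD. Promoter bars of members stand above those of other genes of the same group in the middle and longest classes (by less than 1 SD for TGF-β1 in the middle class), while intron bars rise with length in both sets of genes.

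Genes called in every sample of 1 group and in no sample of the other numbered 10 among the members (4.63%), all in the Control direction, against 0.667% of all autosomal protein-coding genes. In the opposite direction there were 0 members, and 0.00940% of all genes. On promoter calls alone the count was also 10 (4.63%, against 0.554% of all genes), with Cacna1b in place of Grin2c. The first count became 17 without Control replicate 1, which loosens the rule so that the count cannot fall. It became 1 when peaks had a −log10 q of at least 5 or when 878 peaks per sample were used. The 10 genes were Cacna1h, Cacna1s, Cacng4, Chrm4, Grid1, Grin2c, Kcna7, Kcnk1, Kcnk3 and Kcnk6.

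Potassium channels gave 4 of these genes, of which 3 encode two-pore leak channels, the background conductances that set the resting potential. Kcnk1 (TWIK-1) had peaks of 728, 438 and 534 bp in the Control samples, at 1.55, 1.99 and 1.95 times the local background, over untranslated, coding and intron sequence from 200 to 1062 bp after the start. Kcnk3 had 1118, 1195 and 1093 bp at fold enrichments of 1.31, 1.38 and 1.36, at chr5:30890993-30892369 in an intron. A further Kcnk3 region, in an exon 34096 to 35099 bp from the start, was called in 2 Control samples. Kcnk6 (TWIK-2) had 342, 1103 and 782 bp at fold enrichments of 1.997, 1.70 and 2.63. Two-pore channels as a family were called in 9 of 14 members, with 5, 8 and 5 promoter calls under Control and 1, 0 and 1 after TGF-β1. The fourth potassium gene, Kcna7, encodes a Shaker-type voltage-gated channel. Its region, with a CpG ratio of 1.02, had 608, 684 and 742 bp of peak at fold enrichments of 2.08, 1.64 and 1.50, and the peaks of Control 1 and 2 covered the start while that of Control 3 began 249 bp after it.

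Calcium channels gave 3 of the 10. Cacna1h, the T-type channel Cav3.2, had 1139, 862 and 714 bp over its start at chr17:25570032-25571229, with fold enrichments of 1.47, 2.70 and 1.99 in the Control samples. Cacng4 had 565, 602 and 884 bp at 2.20, 1.48 and 2.02. Cacna1s, the channel and voltage sensor of skeletal muscle, had 535, 244 and 713 bp at 1.59, 1.96 and 2.85, but its region lay upstream of the gene, at -2271 to -1348 bp from the start. RefSeq (assembly GRCm38.p6) places Ascl5, a gene not in the annotation used here, directly upstream of Cacna1s, and which of the genes this region belongs to was not tested. The family had calls in 15 of 25 members, with 9, 11 and 11 under Control and 4, 1 and 5 after TGF-β1. Cacna1b (the N-type channel Cav2.2) had promoter peaks of 1284, 669 and 658 bp in the Control samples, of which that of Control 2 lay wholly upstream of the start, and none there in the TGF-β1 samples, and also had an intron call in 1 TGF-β1 sample. The T-type relatives of Cacna1h differed from it: Cacna1i had 2 Control calls and 1 TGF-β1 call at different places near the start, and Cacna1g had 0 peaks in all 6 samples. Cacna1g is on the study's list of genes with changed H3K27me3, for which the study merged the samples of a group before calling peaks.

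Receptors gave the other 3. Chrm4, the M4 muscarinic receptor, had 374, 608 and 492 bp at fold enrichments of 1.60, 1.79 and 2.26 in the Control samples, from 82 to 784 bp after the start. Grid1 had narrower peaks of 368, 241 and 433 bp at 1.61, 1.65 and 1.50. Grin2c, an NMDA receptor subunit of the cerebellum, owed its 3 Control calls to different regions: the promoter was called in Control 1 and 2, and 2 exon regions in Control 1 and 3. Of the other NMDA subunits, Grin1, which every NMDA receptor contains, was called in the 3 Control samples and in TGF-β1 1 and 3, always away from the start. Its region at the 3′ end, chr2:25146163-25148073, was called in 4 of these samples and is shared with the neighbouring gene Lrrc26. Grin2d was called at its start, in a region shared with Kdelr1, in 2 Control samples, and at its 3′ end, in a region shared with Grwd1, in 3 Control and 2 TGF-β1 samples.

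**Figure D4:**
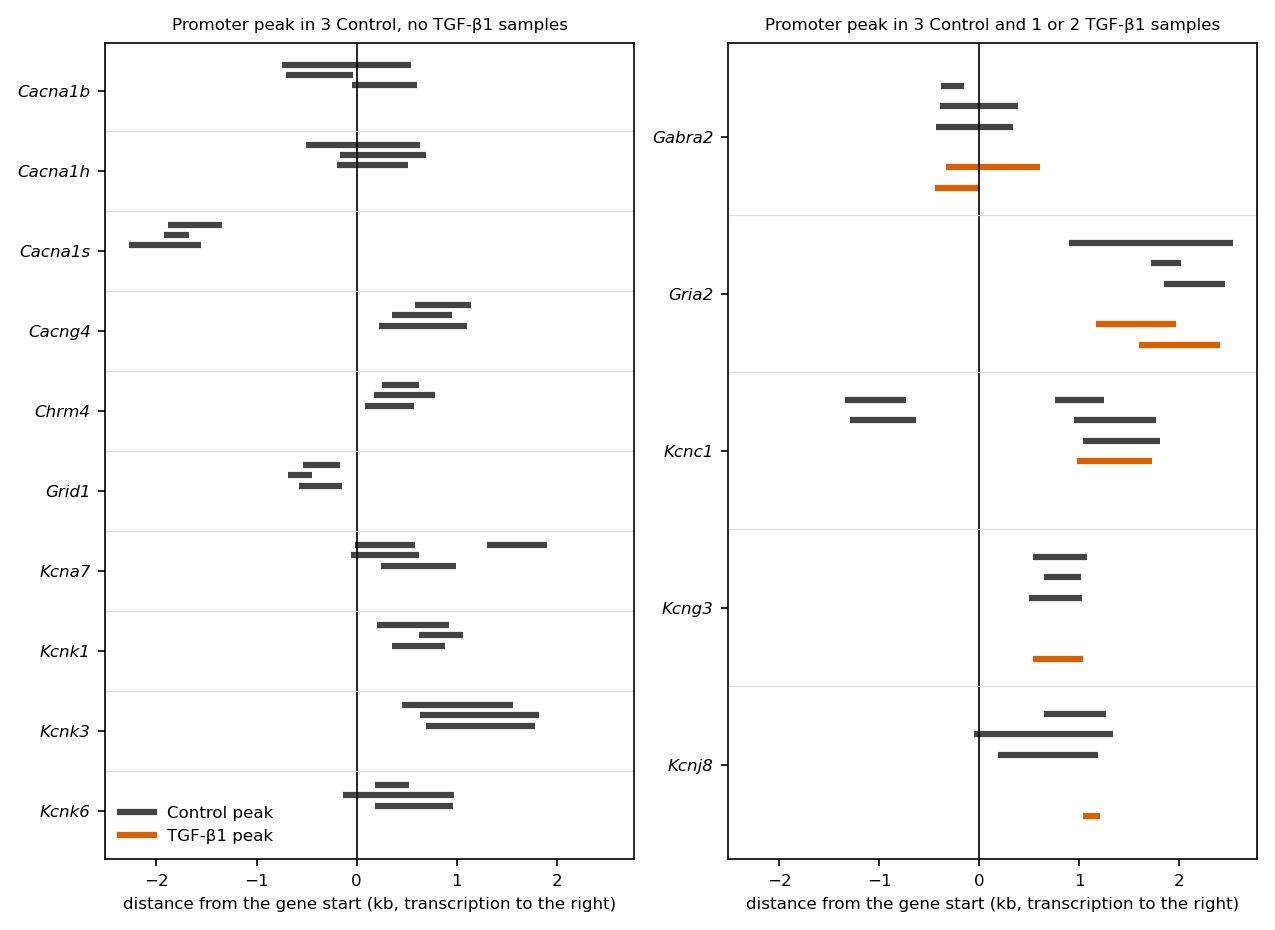
Promoter peaks of 15 members called at the promoter in all 3 Control samples, drawn as bars along the distance from the gene start (kb, direction of transcription to the right), dark for Control and orange for TGF-β1, with 1 line per sample. The 10 genes on the left have no TGF-β1 bar. In the 5 on the right each TGF-β1 bar overlaps a Control bar.

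Promoter calls of 8 members were in all 3 Control samples and also in TGF-β1 samples. In the list of all genes 1.55% were called in at least 2 TGF-β1 samples, and 11 members were (5.09%). Gabra2 had 222, 785 and 767 bp in the Control samples, 0 in TGF-β1 1, and 940 and 444 bp in TGF-β1 2 and 3. Its fold enrichments were 2.40, 2.01 and 1.75 against 1.71 and 2.41, so widths and enrichments of the listed peaks overlapped between groups. Gria2 had 1642, 298 and 605 bp against 798 and 814 bp in TGF-β1 2 and 3, from 895 to 2536 bp after the start. Kcnc1, Kcng3 and Kcnj8 had a call in 1 TGF-β1 sample each. Kcnj8 encodes Kir6.1, the pore of the ATP-sensitive potassium channel of vascular muscle and pericytes, and had 621, 1396 and 1005 bp in the Control samples and 168 bp in TGF-β1 3.

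Calls away from the annotated start were the ones found in every sample. Cacna1a had an intron region at chr8:86937079-86938298, 24740 to 25959 bp from the gene start, with 867, 1181 and 1192 bp in the Control samples and 1186, 494 and 745 bp in the TGF-β1 samples. The widths overlapped between groups, as did the fold enrichments of 1.82, 1.42 and 1.80 against 1.25, 2.08 and 2.17. The annotation has another Cacna1a transcript that starts 965 bp from this region. Kcnn2, the small-conductance calcium-activated channel SK2, had a region of 2615 bp around an internal transcript start 289173 to 291787 bp into the gene, with a CpG ratio of 0.72. It covered 1284, 1847 and 526 bp under Control and 1736, 381 and 1924 bp after TGF-β1. The merged region was thus called in all 6 samples, but no single stretch lay under a peak in each, since the peaks of Control 3 and TGF-β1 2 did not overlap. Of the 18 exon regions 3 lay within 2 kb of an annotated transcript start, and of the 47 intron regions 3 did, those of Cacna1a, Cacna1d, Grik2 and Kcnn2. Counting every transcript start, promoter calls became 45, 51 and 35 against 10, 8 and 10.

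Kcnh1 (Eag1) was called in all 6 samples but at different places. Its promoter was called in Control 1 and 2 and in no TGF-β1 sample, and a region of its intron was called in Control 2 and 3 and in all 3 TGF-β1 samples, with 286 and 282 bp against 270, 289 and 261 bp. Kcnj12 (Kir2.2) was the member called most often in TGF-β1 samples without a Control call, in an intron region 25981 to 26435 bp from the start, with 455 and 313 bp in TGF-β1 1 and 2. The other members with TGF-β1 calls only, which included Cacna2d2 and Gria1, had 1 sample each, and the Cacna2d2 gene lies on chromosome 9.

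Regions of the 3 classes differed in sequence content. Merging peaks across samples gave 147 regions, 82 at promoters, 18 at exons and 47 in introns. The median CpG ratio was 0.58 at promoters, 0.47 at exons and 0.15 in introns. At promoters 63 regions were called in Control samples only, 14 in both groups and 5 in TGF-β1 samples only, with median CpG ratios of 0.58, 0.63 and 0.56, and median widths of 607, 1038 and 471 bp. A merged region with more samples tends to be wider by construction. In introns the counts were 30, 3 and 14, with median CpG ratios of 0.17, 0.11 and 0.14. Words of 31 bases that occur more than once in the assembly made up over 50% of 5 regions, all in introns, among them regions of Cacna1b, Drd3 (2 regions) and Kcnip1. The 2 Drd3 regions, from 6102 to 7473 bp into this D3 dopamine receptor gene, had fold enrichments of 3.73 and 4.63 over 170 and 163 bp in 1 sample each.

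**Figure D5:**
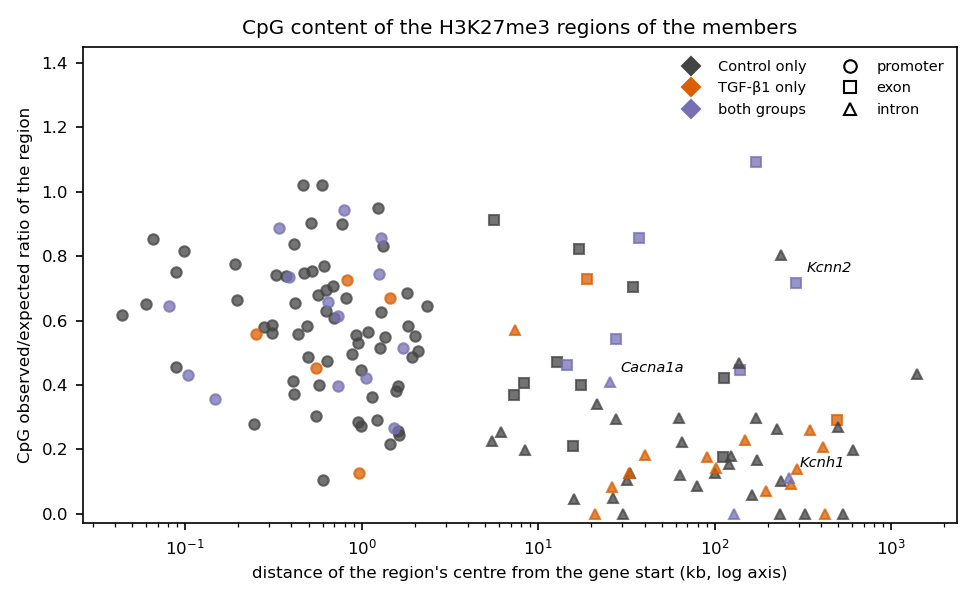
CpG observed/expected ratio of the 147 member regions against the distance of their centre from the annotated gene start (kb, log axis), with the symbol giving the class and the colour the groups with a call. Promoter regions spread from 0.106 to 1.02 and intron regions from 0 to 0.805 with a median of 0.15, and the named regions were called in all 3 TGF-β1 samples.

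Families differed in how many members were called in at least 1 sample. The share of all autosomal protein-coding genes was 11.0%, and nicotinic receptors, at 12.5%, were near it. The highest shares were in metabotropic glutamate receptors and in calcium- or sodium-activated potassium channels (6 of 8 each), pacemaker channels (3 of 4), two-pore channels (9 of 14), ionotropic glutamate receptors (11 of 18), muscarinic receptors (3 of 5) and calcium channels (15 of 25). Voltage-gated potassium channels had 19 of 39, inward rectifiers 8 of 15 and GABA type A receptors 5 of 14. The lowest shares were in nicotinic receptors (2 of 16), dopamine receptors (1 of 5), serotonin receptors (3 of 13), potassium channel accessory subunits (4 of 15) and sodium channels (4 of 14), and glycine receptors had 1 of 3. Length accompanied these shares in part: the median gene was 318 kb in metabotropic glutamate receptors and 271 kb in ionotropic ones, but 13.6 kb in nicotinic, 18.6 kb in serotonin and 4.47 kb in dopamine receptors. Other families went against this order, with high shares at medians of 7.64 kb in muscarinic receptors, 28.5 kb in pacemaker channels and 34.9 kb in two-pore channels. Sodium channel genes, at a median of 90.8 kb, were long and had 1 promoter call in all. Pacemaker, metabotropic and muscarinic genes were called at promoters only, whereas the calcium- or sodium-activated potassium channels had 1 promoter call. Control and TGF-β1 samples separated without overlap in voltage-gated potassium channels (13, 13 and 6 members against 4, 1 and 4), calcium channels, ionotropic glutamate receptors (6, 7 and 8 against 3, 2 and 3), inward rectifiers (3, 4 and 3 against 1 in each), two-pore channels and serotonin receptors (2, 1 and 1 against 0 in each). Other genes separated too, with 4.36 to 5.87% called under Control and 1.47 to 2.94% after TGF-β1, so such a separation is not particular to these families. In GABA type A receptors the groups met, with 3, 4 and 2 members against 2, 2 and 1.

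Members with known parts in contractile and vascular cells were mostly without promoter calls, which is not particular to them. Promoter calls were found in at least 1 sample in 34.3% of all members and 6.93% of all autosomal protein-coding genes. Kcnma1, the pore of the large-conductance calcium-activated potassium channel of mesangial and vascular muscle cells, had 1 intron peak in Control 2 and 1 in TGF-β1 3, at 496972 and 411684 bp into the gene. Its smooth muscle partner Kcnmb1 had 0 peaks. The L-type calcium channel genes Cacna1c and Cacna1d were called in 2 Control and 2 TGF-β1 samples and in 2 Control and 1 TGF-β1 samples, respectively, all away from the annotated start, and no Cacna1c region was called in more than 1 sample. The serotonin receptor gene Htr2a and the M3 muscarinic receptor gene Chrm3 had 0 peaks, with Chrm3 annotated here over 1.95 kb only. Kcnj8 was the exception in this group. Among the longest members, Grm7 (922 kb) had 0 peaks, Kcnip4 (1135 kb) was called in 1 Control sample, Grm8 (860 kb) in 1 of each group, and Cacna2d3 (817 kb) in 3 Control samples and 1 TGF-β1 sample.

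Genes of the same pathways outside the members were counted in the same way. Of all autosomal protein-coding genes 11.0% were called in at least 1 sample, and 0.667% in 3 Control and 0 TGF-β1 samples. Of 27 synaptic scaffold and adhesion genes, 10 were called, 10 of them in Control samples and 7 in TGF-β1 samples. Shank1, a postsynaptic scaffold, was the only one with 3 Control and 0 TGF-β1 calls, and Gphn (gephyrin, the anchor of inhibitory receptors) and Dlgap2 were called in all 6 samples. Of 42 other channels and receptors, 10 were called, with Accn2 (an acid-sensing channel) in 3 Control and 0 TGF-β1 samples and Adra2a (an adrenergic receptor) in 3 and 2. Among markers of other cell types, calls were found in 4 of 6 podocyte, 2 of 5 epithelial, 2 of 5 neuronal and 0 of 5 endothelial genes. Lists this short say little against the share of all genes. Cdh1, the epithelial cadherin, was called at its promoter in all 6 samples. The neuronal gene Rbfox3 was called in 3 Control and 0 TGF-β1 samples, always away from its promoter.

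The member peaks were weak by the measures in the lists. Over 248 peaks the median fold enrichment was 1.83 (1.01 to 7.54), the median width was 522 bp, 19 peaks had a −log10 q of at least 5 and 4 a fold enrichment of at least 4. The listed −log10 q was below 1 in 182 (73.4%), although the headers give a q of 0.1 for weak regions. The reason was not tested. Median promoter fold enrichments per sample were 1.74, 1.75 and 1.92 for Control and 1.90, 1.61 and 2.32 for TGF-β1, and these overlapped. The strongest peaks lay at exons, in Scn8a (7.54), Kcnh6 (6.84) and Grik2 (5.44), each in 1 Control sample.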

How the data were processed

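H3K27me3 ChIP-seq peak lists from 3 Control and 3 TGF-β1 samples were analysed, grouped by the treatment label. According to the study's methods, the authors aligned reads to mm9 with BWA and kept unique ones. Per the file headers, the authors called broad peaks with MACS 2.1.0.20150731 on each sample without a control library (q of 0.01 for strong and 0.1 for weak regions). As deposited, pileup is a coverage signal (mean extended tags over the peak, unscaled). Fold enrichment, also deposited, is the ratio of pileup to the background near the peak. Significance was deposited as −log10 of p and of q. Headers give 24753483 to 25635595 tags of 49 bp before and 19721434 to 22307716 after removal of duplicates. Tags per peak were not used here, so precision rests on 3 samples per group.

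Genes, exons and transcript starts came from GENCODE M1. For 2 symbols several entries of a gene were joined, and where a symbol had entries on both strands the longest was kept. Per-sample counts were compared on log2(count + 0.5) by a 2-sided exact permutation test (smallest p 0.1). Expected counts were sums of the shares of other genes in 10 length bins, or in 2 CpG classes. Background in tags was pileup divided by fold enrichment. Code was tested on simulated peaks. Python 3.11.15, numpy 2.4.6, pandas 2.3.3 and matplotlib 3.10.9 were used.

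The members and gene lists were chosen with earlier results of these data known. Named genes followed a rule: members called in 1 whole group and never in the other, up to 20 with promoter peaks in at least 2 samples, up to 10 each with peaks outside promoters or in at least 2 TGF-β1 samples, the 5 longest, Cacna1g, which the study lists, and Kcnma1, Kcnmb1, Cacna1c, Cacna1d, Kcnj8, Htr2a and Chrm3. Chosen after values were seen were the printed sequences, the removal of chromosome 9, and mention of Gria1, Cacna2d2, Kcnj12, Drd3 and Grik2. Some genes and sequences that these choices would name are not reported here, though the genes stay in all counts. Alternatives covered peak thresholds, equal numbers of peaks, overlap by midpoint, other promoter windows, pseudocounts and bins, no CpG class, membership, the replicate block and leaving out samples.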

Additional observations from a re-analysis of the deposited data

How the results depend on the processing

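With all deposited peaks, the 7 compared values kept their direction when any 1 sample was left out, with ranges of log2 difference of -1.859 to -1.404 for members with a peak, -2.546 to -2.256 for promoter calls, -1.127 to -0.4498 for intron calls, -1.823 to -1.323 for promoter against intron, -0.667 to -0.5177 against genes of like length, -0.9901 to -0.7244 for promoter calls against other genes and -2.267 to -1.678 for covered length. Members called in all Control and no TGF-β1 samples then numbered 10 to 17 (17 without Control replicate 1), and those in the other direction 0 to 1 (1, Kcnj12, without TGF-β1 replicate 3). Leaving out a sample loosens the rule for such a call, so neither count could fall. Across the other alternatives, the log2 difference was -2.768 to -1.291 for promoter calls and -2.114 to -1.364 for promoter against intron. The intron difference turned to 0.8236 with equal numbers of peaks (exact permutation p = 0.1) and to 0.5283 at a fold enrichment of at least 4 (exact permutation p = 1.0), where 1 intron call was left in all. At that threshold the groups also overlapped for members with a peak (-1.057) and against genes of like length (-0.5183, exact permutation p = 0.4 each). The causes were not tested. At that threshold 0 promoter calls were left in any sample, so 3 results had no value. With equal numbers of peaks members with a peak gave -0.6508 and covered length -0.9717. At a −log10 q of at least 5 the groups overlapped for promoter against intron (-1.89, exact permutation p = 0.4), against genes of like length (-1.12, p = 0.3) and for promoter calls against other genes (-1.406, p = 0.2). The count of 10 members became 1 at a −log10 q of at least 5, 0 at a fold enrichment of at least 4 and 1 with equal numbers of peaks. Leaving out chromosome 9 gave -2.323 for promoter calls.

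Same-numbered samples did not deviate together over 2334 genes, with correlations of 0.0037, 0.0058 and 0.0142, so the numbers were not taken as pairs. With them as a replicate block the values were the same by construction (-1.65, -2.385, -0.7639, -1.622, -0.5876, -0.8479 and -1.999), and the exact sign-flip test gave p = 0.25, its minimum, for each but the intron calls (p = 0.5). Weak peaks limit all of this, since few calls remain at stricter thresholds.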
